A study of Arabidopsis thaliana with 12 samples.

Results

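Roots and leaves of 7-day-old wild-type (WT) Arabidopsis thaliana seedlings, accession Col-0, were compared by mRNA sequencing. The comparison took 3 root libraries (WT root 1 to 3) against 3 leaf libraries (WT leaf 1 to 3), 6 of the 12 libraries in the series, and it covered every gene that reached at least 1 CPM (read counts scaled to a common library total) in at least 3 of these 6 libraries. That rule left 20291 genes of the 37336 gene identifiers in the count files. The labels give neither group a mutation or a treatment, and they give both the same age. A check of the labels, described below, left the genotype of a leaf library in doubt. The other 6 libraries were labelled as roots and leaves of the pi4kβ1β2 double mutant, which lacks the phosphatidylinositol 4-kinases β1 and β2. They were used to ask where the organ difference of WT differed from that of the mutant and to check the labels. They also entered 1 alternative fit, that of all 12 libraries. Per the study's methods the roots came from 3 biological repetitions, and each root RNA sample was a pool of many seedlings. The labels call the other organ leaf and do not say whether cotyledons, hypocotyl or shoot apex were harvested with it, and the labels of WT leaf 3 carry calendar dates in the field where the other libraries have a growth stage. For leaves neither the labels nor the methods say whether the libraries were separate cultures, so the p values measure the spread between these libraries.

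Leaves and roots of a seedling hold the same genome and divide the work of the plant between them. Green leaf cells hold chloroplasts with the light-harvesting antenna, the photosystems and the Calvin cycle, and the leaf surface is sealed by a waxy cuticle that stomata interrupt. The root takes up water and ions through an epidermis with hairs, and an endodermis with a lignified Casparian strip and suberin lamellae controls what passes to the xylem. Glucosinolates, the defence compounds of the mustard family, are made in both organs, while some triterpenes are known as root products.

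Each WT library held 39313257 to 43069306 counted reads on the strand of the library, so counting error was small for all but the weakest genes. The 100 most abundant genes took 12.5 to 13.3% of the counts in roots and 22.2 to 24.1% in leaves. Composition factors (TMM) of 1.17 to 1.19 in roots and 0.833 to 0.856 in leaves were therefore applied, and a level below is a normalized CPM unless stated otherwise. In a principal component analysis the first component carried 94.4% of the variance and separated the organs. The second carried 3.32% and set the library labelled WT leaf 2 apart from the other 5.

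The library labelled WT leaf 2 also went against its label. MRD1 (AT1G53480) was at 0.812, 1.74 and 0.408 CPM by library size in the pi4kβ1β2 roots, against 50.7, 53.8 and 54.7 in the WT roots. In leaves it was at 35.8, 0.917 and 1.01 CPM by library size in the libraries labelled pi4kβ1β2 leaf 1, 2 and 3, against 36.8, 0.73 and 39.3 in those labelled WT leaf 1, 2 and 3. The libraries labelled WT leaf 2 and pi4kβ1β2 leaf 1 thus each had the MRD1 level of the other genotype. The kinase gene PI4KB2 had 14.6, 16.2 and 14 CPM in WT roots, against 11.8, 4.70 and 12.1 CPM in WT leaf 1, 2 and 3. PI4KB1 had 73.5, 79.1 and 71.2 CPM in WT roots, against 61.1, 47.9 and 68.2 CPM in the same leaf libraries. The values of each leaf library are therefore given one by one, and results that turned on the library labelled WT leaf 2 are given with and without it.

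The labelled organs were checked against markers of each. The 10 green leaf markers, among them RBCS3B, LHCB3 and GOX1, summed to 143, 234 and 109 CPM by library size in roots, against 24188, 21535 and 23711 CPM in leaves. The stomatal genes SPCH, MUTE, FAMA and TMM together had 24, 31 and 17 counts in the root libraries and 1286, 678 and 1430 counts in the leaf libraries. Of 4 shoot apex markers, STM was at 2.9 to 4.83 CPM in leaves, against 0.117 to 0.238 CPM in roots. WUS had 1 count over the 3 leaf libraries and 2 over the roots. CLV3 had 13 counts in leaves and 1 in roots, and CUC2, which did not separate the organs, had 46 and 42. The 11 root markers summed to 400, 406 and 420 CPM by library size in roots. In leaves they summed to 29.4, 89.0 and 38.9 CPM in libraries 1, 2 and 3, and none of the 11 was at 0 in any leaf library. The leaf libraries thus held transcripts of root hair, endodermis and root tip genes, most of them in the library labelled WT leaf 2. Their part in the differences below was not tested.

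Most genes differed between the organs. In the quasi-likelihood test of edgeR, adjusted after Benjamini-Hochberg, 7363 genes were higher in roots (36.3% of the genes tested) and 7585 were lower in roots (37.4%), which made 73.7% in all. With a fitted difference of at least 2-fold as well, 3285 genes (16.2%) were higher and 3974 (19.6%) were lower in roots. The organs did not overlap in 79.2% of the genes tested. A count of members called in a list is to be read against these shares. A gene that reached 1 CPM in only 1 organ entered the test through that organ and had to differ, so such counts describe the members tested. The split depended on scaling. With library size alone, 12116 genes were higher and 4598 lower in roots, and the median difference of all genes was 0.48 on the log2 scale, against -0.00314 with composition factors. All fold changes below are log2 of root over leaf in the fit with composition factors.

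The sizes of the differences were not alike in both directions. The median difference of the called genes was 0.84 among genes higher in roots and 1.08 among genes lower in roots. At least 32-fold higher in roots were 5 genes, while 768 were at least 32-fold lower, and 549 of these were at least 64-fold lower. The count of 5 turned in part on the library labelled WT leaf 2. A 32-fold difference is 5 on the log2 scale. Without that library LAC2, AT1G77530, AGL42, AGL21 and CLE5 passed it, at 5.17, 5.09, 5.16, 5.12 and 5.31. AT2G38390, AT1G77520, AT5G23840 and AT1G19900, also among the largest root differences named below, stayed under it. The genes past 32-fold in that fit were not counted. Among genes with 20 CPM or more in their higher organ, 446 genes were at least 32-fold higher in leaves and 1 gene, MRN1, in roots. The 446 leaf genes took 0.264, 0.351 and 0.240% of the counts in roots, against 25.1, 22.7 and 24.0% in leaves. They were picked for their difference in these same libraries, so a gap between these shares follows from the choice.

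**Figure D1:**
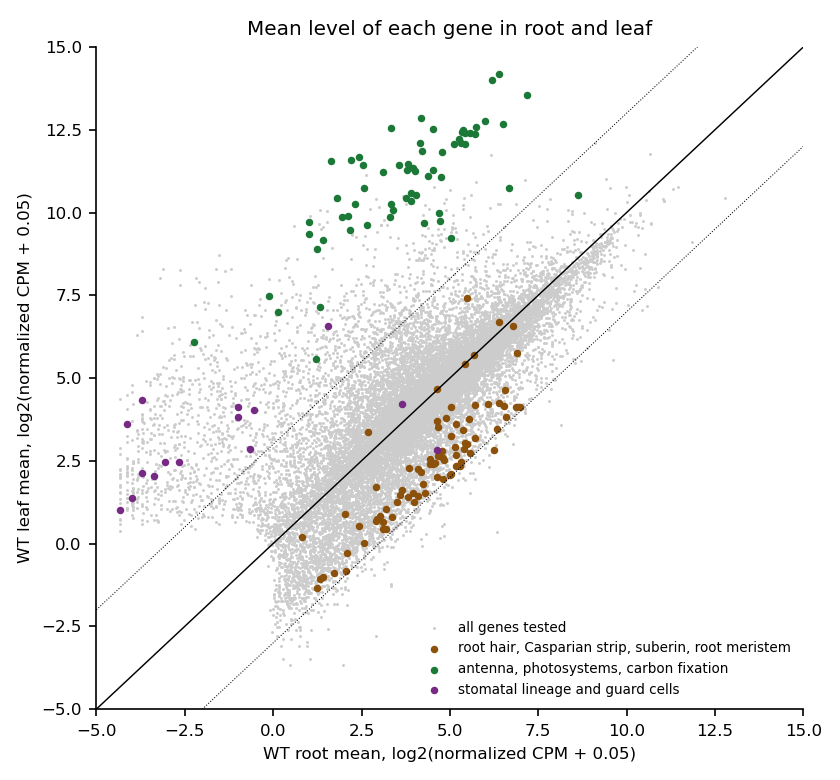
Mean level of each tested gene in WT roots (x axis) and in WT leaves (y axis), both as log2 of normalized CPM + 0.05 and over 3 libraries each, with root lists in brown, photosynthesis lists in green, stomatal genes in purple and dotted lines 8-fold from the diagonal. Points above the diagonal, the genes lower in roots, lie much farther from it than points below it. In the fit of all 6 libraries 768 genes lower in roots against 5 higher in roots passed 32-fold.

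The level that genes of one organ kept in the other was a further way to see this asymmetry. The called Casparian strip genes stood, at the median, at 10.4, 23.0 and 14.4% of their root mean in WT leaf 1, 2 and 3, and the called suberin genes at 12.1, 24.7 and 11%. Root hair genes stood at 13.5, 37.8 and 20.2% and root meristem and root cap genes at 13.8, 33.0 and 15.3% in the same leaf libraries. Over all 7 root lists measured in this way, which add vascular tissue, triterpene clusters and the myrosinases with ER bodies, the medians ran from 6.25% (triterpene clusters) to 23.5% (vascular tissue) in WT leaf 1. They ran from 23.0 to 37.8% in WT leaf 2 and from 7.81 to 23.6% in WT leaf 3, and the library labelled WT leaf 2 was the highest in each of the 7 lists. The reverse was lower. Antenna genes stood at 0.578, 0.791 and 0.521% of their leaf mean in WT root 1, 2 and 3, and carbon fixation genes at 0.608, 1.04 and 0.460%. Photorespiration genes stood higher, at 2.88, 2.86 and 2.45%, and genes of the stomatal lineage and guard cells at 1.80, 2.00 and 1.56%. Single members of these 2 lists reached 28.4 and 71.8% in WT root 1. In bulk organs fewer cells of a type and less RNA per cell cannot be told apart, and the part of root or hypocotyl tissue in the leaf libraries was not tested.

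**Figure D2:**
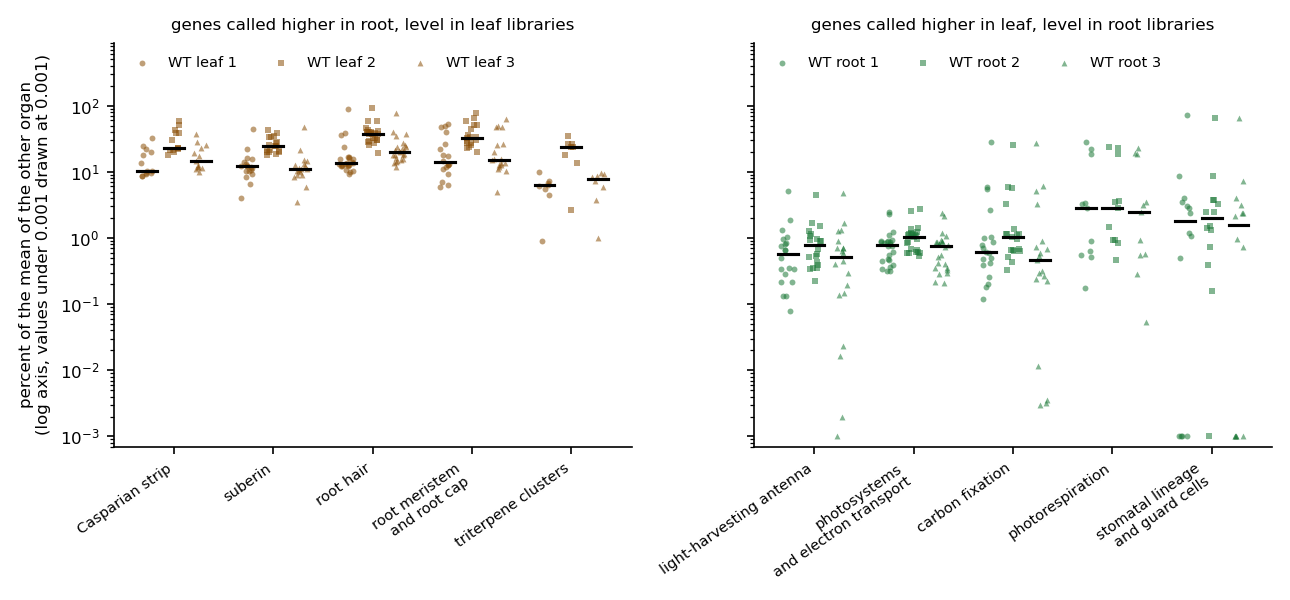
Level of the called genes of each list in the organ where they were lower, as a percentage of their mean in the organ where they were higher (log axis), with 1 point per gene, 1 column per library and a bar at the median of the list. The medians of the root lists in the leaf libraries (left panel) lie between 6.25 and 37.8%, with the library labelled WT leaf 2 the highest. Those of the antenna, photosystem and carbon fixation lists in roots (right panel) lie near 1% or below, and those of photorespiration and stomatal genes between 1.56 and 2.88%.

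**Figure D3:**
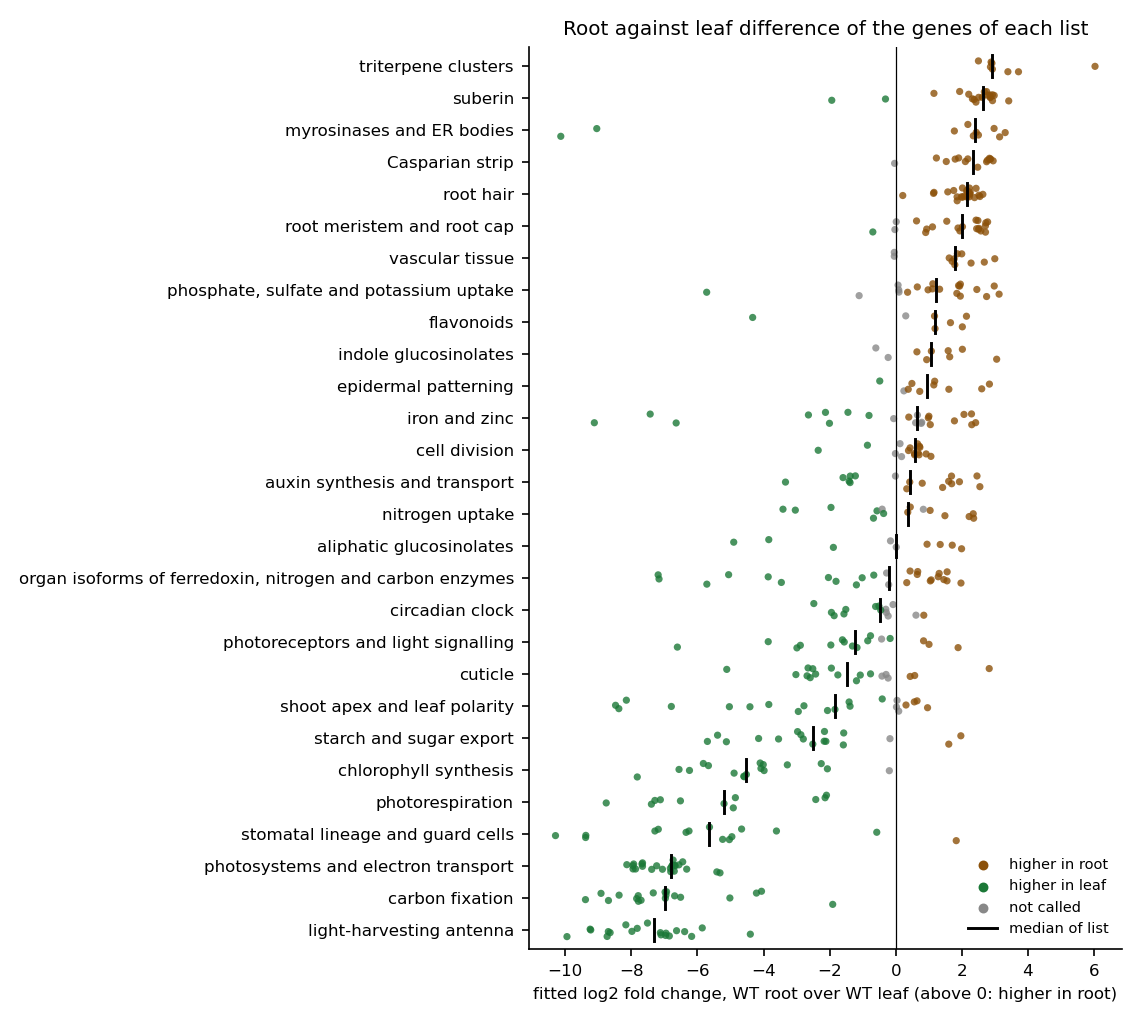
Fitted log2 fold change of WT root over WT leaf (x axis) for each tested gene of 28 lists, 1 row per list, with 1 point per gene coloured by its call and a black bar at the median of the list. The medians run down the page from 2.92 for the triterpene clusters to -7.32 for the light-harvesting antenna.

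The genes of the 3 photosynthesis lists were lower in roots. All 20 light-harvesting antenna genes, all 24 genes of the photosystems and electron transport and all 19 genes of carbon fixation passed the test in that direction, with medians of -7.32, -6.81 and -6.98. LHCB1.3, an antenna protein of photosystem II, had 63.4, 109 and 77.2 CPM in roots, against 20439, 17766 and 18191 CPM in leaves (log2 fold change -7.82 ± 0.28 SE, adjusted p = 2.37e-06). RBCS1A, a small subunit of Rubisco, had 65.4, 114 and 37.4 CPM in roots, against 17282, 14657 and 17770 CPM in leaves (-7.84 ± 0.53, adjusted p = 4.8e-05). The leaf libraries held these transcripts at levels far above the roots and varied little among themselves. The roots varied more. RBCS3B had 15.2, 38.1 and 0.871 CPM in roots, against 8225, 6145 and 8049 CPM in leaves (-8.69 ± 1.42, adjusted p = 0.00201). LHCB1.4 had 2.37, 6.78 and 0.0594 CPM in roots, against 3403, 2714.5 and 3009.8 CPM in leaves (-9.95 ± 1.34, adjusted p = 0.00089). For both genes WT root 2 was the highest root and WT root 3 the lowest, and without WT root 2 the differences were -9.87 and -11.32. Green tissue carried into a root sample was not tested as a source of these transcripts. The smallest difference in carbon fixation was that of TKL1, a transketolase, with 412, 371 and 402 CPM in roots and a log2 fold change of -1.91 ± 0.07.

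Neighbouring pathways followed to different degrees. All 11 tested genes of photorespiration were lower in roots, with a median of -5.19, and GOX1, a glycolate oxidase, had 1.85, 4.97 and 0.574 CPM in roots and a log2 fold change of -8.76 ± 0.82 (-9.80 without WT root 2). PGLP1 was not tested, with 0 counts in roots and 35 in leaves. All of its 1422 windows of 75 exon bases (100%) occur elsewhere in the genome, so reads that map to several genes were left out of its count. Of 17 genes of chlorophyll synthesis, 16 were lower in roots (median -4.52). They included CHLH, a subunit of magnesium chelatase, at -4.59 ± 0.13, and GLK1, a transcription factor of chloroplast development, at -7.82 ± 0.43 (-8.54 without WT root 2). The exception was HEMA2, a glutamyl-tRNA reductase that also serves heme synthesis, with 31.8, 32.5 and 18.2 CPM in roots, against 28.3, 42.1 and 24.0 CPM in leaves (adjusted p = 0.578). Of 17 genes of starch and sugar export, 14 were lower and 2 higher in roots. TPT, the triose phosphate exporter of the chloroplast, was lower (-5.70 ± 0.11). Both sucrose synthases on the list were higher, SUS1 with 81.4, 84.9 and 78.2 CPM in roots, against 20.3, 36.6 and 23.4 CPM in leaves (1.61 ± 0.22, adjusted p = 0.00102), and SUS4 at 1.97 ± 0.29. SUC2, which loads sucrose into the phloem, had 55.6, 53.9 and 53.7 CPM in roots, against 61.2, 51.2 and 71.7 CPM in leaves, and was called lower in roots only without the library labelled WT leaf 2 (-0.29, adjusted p = 0.0101, against 0.233 with it).

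The factors that specify the stomatal lineage, which makes the guard cells of the leaf surface, were close to absent in roots. Of 15 tested members 14 were lower in roots (median -5.63). Where 1 CPM was required in 4 of the 6 libraries, only 3 members could be tested and 2 of them were lower, since the rest had passed the filter through the leaf libraries alone. FAMA, which drives guard cell fate, had 1 count in the 3 roots together and 1267 in the leaves. Its pooled level was 1803-fold lower in roots, with a 95% counting interval of 323- to 71259-fold. MUTE, which acts before FAMA, had 0 counts in roots and 205 in leaves, so it was at least 97.2-fold lower in roots, taking 3 counts over the roots as the floor. EPFL9, a peptide that promotes stomata, was at 0, 0.078 and 0 CPM in roots, against 23.1, 19.2 and 17.7 CPM in leaves. The exception was GORK, an outward potassium channel of guard cells that root hairs also use, with 26.2, 25.1 and 23.4 CPM in roots, against 7.06, 6.43 and 7.48 CPM in leaves (1.83 ± 0.09, adjusted p = 7.68e-06). Of 21 tested genes of shoot apex and leaf polarity, 14 were lower and 4 higher in roots, and 8 were lower and 4 higher of the 15 that reached 1 CPM in 4 libraries. With library size alone 13 were lower and 7 higher. The YABBY factors of lateral organs led the fall, YAB1 with 0.109, 0.156 and 0 CPM in roots, against 36.5, 26.7 and 34.1 CPM in leaves (-8.48 ± 0.46), and YAB3 at -8.38 ± 0.41. Without WT root 2 they were at -9.20 and -9.20. KNAT1, a homeobox factor of the shoot apex, had 16.8, 17.4 and 18.0 CPM in roots, against 15.9, 17.7 and 15.3 CPM in leaves (adjusted p = 0.323). With library size alone KNAT1 was higher in roots (0.57, adjusted p = 0.000733). PHB, which specifies the upper leaf side in shoots and also patterns the root vasculature, was higher in roots (0.65 ± 0.12, adjusted p = 0.00368).

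Among the genes with the largest differences, 4 belonged to 1 short stretch of chromosome 4. Annotated there are 6 neighbouring genes of the lipid-transfer protein and seed storage albumin superfamily, between bases 11844506 and 11858970 (TAIR10.1, 14.46 kb). They had 27 (AT4G22485), 45 (AT4G22490), 17 (AT4G22505), 10 (AT4G22513), 9 (AT4G22517) and 4 (AT4G22520) counts in the 3 roots together. In leaves the same genes had 24926, 44020, 23409, 32722, 27239 and 11855 counts. AT4G22513 was at 0.0218, 0.175 and 0 CPM in roots, against 344, 236 and 366 CPM in leaves (-12.13 ± 0.57, adjusted p = 1.08e-05). The differences of the 6 genes ran from -10.34 (AT4G22485) to -12.13 (AT4G22513). Their size depends on WT root 2, since the other roots hold so few counts. No other gene in the stretch passed the filter on low counts, and most of the root counts came from WT root 2, the root library with the highest level of the green leaf markers.

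The 250 bases before the annotated start of 3 of these genes are shown because they resemble each other in stretches. Sequences are from the RefSeq TAIR10.1 assembly, all on the plus strand, at chr4:11854559-11854808, chr4:11856493-11856742 and chr4:11858364-11858613 in the order printed, and capitals mark runs of 12 or more bases shared with another of the 3 windows.
AT4G22513: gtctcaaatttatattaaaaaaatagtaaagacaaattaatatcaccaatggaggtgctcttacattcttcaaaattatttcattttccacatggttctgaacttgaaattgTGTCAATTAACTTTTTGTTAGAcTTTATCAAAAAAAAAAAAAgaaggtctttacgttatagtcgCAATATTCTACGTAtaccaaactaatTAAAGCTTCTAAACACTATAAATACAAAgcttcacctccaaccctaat
AT4G22517: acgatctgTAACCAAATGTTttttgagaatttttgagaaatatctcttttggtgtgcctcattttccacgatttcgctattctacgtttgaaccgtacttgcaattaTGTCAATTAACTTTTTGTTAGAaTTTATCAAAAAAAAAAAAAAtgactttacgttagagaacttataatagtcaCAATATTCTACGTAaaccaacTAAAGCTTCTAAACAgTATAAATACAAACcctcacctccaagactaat
AT4G22520: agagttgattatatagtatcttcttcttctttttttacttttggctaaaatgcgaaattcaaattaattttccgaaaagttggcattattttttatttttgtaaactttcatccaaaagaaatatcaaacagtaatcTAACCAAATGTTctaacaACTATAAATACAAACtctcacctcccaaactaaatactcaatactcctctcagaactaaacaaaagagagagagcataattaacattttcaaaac
The first and second windows shared a run of up to 22 bases and the third shared runs of up to 14 and 13 bases with them, while the windows of AT4G22485, AT4G22490 and AT4G22505 shared no run of 12 bases with any of the 6. The letters TATAAATA, searched on both strands as a TATA box, began 32 bases before the start of AT4G22513 and of AT4G22517 and 93 bases before that of AT4G22520. They were in 4 of the 6 windows (66.7%) and in 1724 of 20229 windows of all tested genes (8.52%), and the motif was chosen after the windows had been seen. The G-box (CACGTG) and the I-box (GATAAG), motifs known from promoters of light-regulated genes, were in none of the 6. Across the antenna, photosystem and carbon fixation genes the G-box was in 10 of 63 windows (15.9%), against 1469 of 20229 (7.26%) among all tested genes. The I-box was in 15 of the 63 windows (23.8%), against 12.2% of all windows. A match is a description of letters and says nothing of binding.

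The barriers of both organs showed opposite directions. Of 18 tested genes of the cuticle, the waxy seal of the shoot, 12 were lower and 3 higher in roots, with a median of -1.47. CER6, which elongates wax precursors, had 6.22, 6.02 and 4.97 CPM in roots, against 197, 159 and 239 CPM in leaves (-5.11 ± 0.20, adjusted p = 4.3e-06). CER4, an alcohol-forming reductase, went the other way with 8.20, 8.28 and 7.42 CPM in roots, against 1.35, 0.712 and 1.29 CPM in leaves (2.83 ± 0.24, adjusted p = 0.00011). Of 20 genes of suberin, the polyester of the root endodermis, 18 were higher and 2 lower in roots, with a median of 2.65. GPAT5, an acyltransferase of suberin, had 18.7, 16.5 and 16.1 CPM in roots, against 2.21, 4.21 and 1.55 CPM in leaves (2.68 ± 0.35, adjusted p = 0.000804). CYP86A1, which oxidizes its fatty acids, had 131, 115 and 108 CPM in roots, against 13.5, 24.2 and 14.8 CPM in leaves (2.75 ± 0.24). FACT, a caffeoyl transferase that makes waxes of the suberin layer, had 80.2, 70.5 and 77.1 CPM in roots, against 3.06, 13.7 and 4.46 CPM in leaves, and its difference was 3.42 ± 0.56 with all leaf libraries and 4.33 without the library labelled WT leaf 2. The 2 members lower in roots were FAR1 (AT5G22500), another alcohol-forming reductase, with 49.4, 41.6 and 43.5 CPM in roots, against 205, 120 and 190 CPM in leaves (-1.93 ± 0.21), and KCS20, a fatty acid elongase, at -0.31 ± 0.08, which had the opposite sign with library size alone (0.17).

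The Casparian strip, the lignin ring of the endodermis, was represented by 14 genes, of which 13 were higher and none lower in roots (median 2.33). CASP1, a membrane protein that marks the site of the strip, had 95.5, 89.8 and 103 CPM in roots, against 8.95, 21.9 and 11.2 CPM in leaves (2.78 ± 0.34, adjusted p = 0.000621). ESB1, a dirigent protein that localizes its lignin, had 121, 120 and 135 CPM in roots, against 12.7, 24.8 and 14.8 CPM in leaves (2.85 ± 0.26). In both genes the 3 roots were close to each other and the library labelled WT leaf 2 was the highest leaf library. TPST, which sulfates the peptides that seal the strip and others besides, had 24.2, 25.3 and 25 CPM in roots, against 24.6, 25 and 26.7 CPM in leaves (-0.03 ± 0.06, adjusted p = 0.619), and with library size alone it was higher in roots (0.45).

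Of 21 tested genes of the root meristem and root cap, 18 were higher and 1 lower in roots (median 2.02). PLT1 and PLT2, which maintain the stem cells, rose by 2.43 ± 0.27 and 2.78 ± 0.44, and the root cap factors SMB and FEZ by 2.72 ± 0.30 and 2.73 ± 0.62. Without the library labelled WT leaf 2 PLT2 was at 3.45 and FEZ at 4.11. SCR, which acts in the endodermis and in the bundle sheath of leaves, had 42.3, 43.5 and 43.9 CPM in roots, against 41.5, 43.5 and 43.2 CPM in leaves (0.02 ± 0.05, adjusted p = 0.766). With library size alone SCR was higher in roots (0.50, adjusted p = 0.000204). WOX5, a homeobox factor of the quiescent centre, had 1.94, 1.68 and 1.48 CPM in roots, against 0.883, 1.34 and 1.06 CPM in leaves (0.63 ± 0.23, adjusted p = 0.0417), and this call was lost in 9 alternative fits. ACR4, a receptor kinase of the root tip that is also found in the shoot epidermis, was the member lower in roots, with 6.59, 6.92 and 5.58 CPM in roots, against 11, 8.74 and 11.1 CPM in leaves (-0.69 ± 0.14), and it was not called with library size alone (-0.21, adjusted p = 0.193).

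All 24 genes of the root hair list were higher in roots (median 2.15). EXPA7, a cell wall expansin of root hairs, had 26.8, 27.4 and 30.0 CPM in roots, against 3.47, 8.34 and 6.16 CPM in leaves (2.23 ± 0.30, adjusted p = 0.000887). RHD6, the factor that starts hair formation, had 23.2, 26.1 and 25.4 CPM in roots, against 2.33, 6.26 and 3.40 CPM in leaves (2.64 ± 0.35). The smallest difference was that of SCN1, a regulator of GTPases that focuses hair growth, at 0.21 ± 0.07 (adjusted p = 0.0384), and 7 alternative fits did not call it. Of 10 tested genes of epidermal patterning, 8 were higher and 1 lower in roots. WER, a MYB factor of the hairless cell files, had 19.5, 20.5 and 21.5 CPM in roots, against 2.12, 4.3 and 3.68 CPM in leaves (2.6 ± 0.25), and its partner GL3 rose by 2.84 ± 0.31. TTG1, which works with both in roots and with other partners in leaf trichomes, was lower in roots, with 27.4, 27.1 and 27.1 CPM in roots, against 37.9, 38.0 and 38.0 CPM in leaves (-0.48 ± 0.04, adjusted p = 0.000143), a difference of -0.00349 with library size alone.

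Transporters for mineral uptake divided between the organs. Of 15 tested genes of nitrogen uptake, 7 were higher and 6 lower in roots, shares near the background of 36.3 and 37.4%, and with library size alone 3 were lower. NPF7.3, which loads nitrate into the xylem, had 519, 519 and 627 CPM in roots, against 76.8, 186 and 61.9 CPM in leaves (2.36 ± 0.44, adjusted p = 0.00352, and 3.00 without the library labelled WT leaf 2). The ammonium transporter AMT1;3 rose by 2.22 ± 0.25. NRT2.7, a nitrate transporter of the vacuole known from seeds, had 1.13, 1.31 and 1.05 CPM in roots, against 12.4, 11.4 and 13.3 CPM in leaves (-3.41 ± 0.13). Of 20 tested genes for phosphate, sulfate, potassium and related ions, 15 were higher and 1 lower in roots (median 1.23). PHO1, which exports phosphate to the xylem, had 270, 290 and 274 CPM in roots, against 32.7, 90.2 and 29.2 CPM in leaves (2.46 ± 0.46, adjusted p = 0.0037, and 3.17 without the library labelled WT leaf 2). HAK5, a high-affinity potassium carrier, had 72.4, 73.7 and 96.7 CPM in roots, against 4.39, 21.9 and 4.43 CPM in leaves, with a difference of 2.98 ± 0.68 with all leaf libraries and 4.2 without the library labelled WT leaf 2. The boron exporter BOR4 rose by 2.75 ± 0.54, and by 3.68 without that library. AKT2, a potassium channel of the phloem, was the member lower in roots, with 0.283, 0.448 and 0.238 CPM in roots, against 18.5, 19.8 and 13.4 CPM in leaves (-5.72 ± 0.28).

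Genes of iron uptake turned on 1 leaf library. Of 22 tested genes for iron and zinc, 9 were higher and 8 lower in roots, shares near the background of 36.3 and 37.4%. Without the library labelled WT leaf 2, 13 were higher and 8 lower, against 7779 and 7815 of all 20291 genes tested. Of the 19 that reached 1 CPM in 4 libraries, 5 were lower. IRT1, the iron importer of the root epidermis, had 10.7, 9.12 and 8.02 CPM in roots, against 0.559, 15.6 and 0.144 CPM in WT leaf 1, 2 and 3. FRO2, the reductase that supplies it with ferrous iron, had 4.31, 4.91 and 4.47 CPM in roots, against 0.824, 6.26 and 0.834 CPM in leaves. NAS2, a synthase of the iron chelator nicotianamine, had 4.59, 3.20 and 4.55 CPM in roots, against 0.353, 7.23 and 0.518 CPM in leaves. In all 3 genes the library labelled WT leaf 2 lay above every root library while the other leaf libraries lay below every root library. With it the differences were 0.77 ± 1.31, 0.79 ± 0.80 and 0.60 ± 1.05 for IRT1, FRO2 and NAS2, with adjusted p of 0.615, 0.402 and 0.624. Without it they were 4.72, 2.46 and 3.23, with adjusted p of 6.99e-05, 8.26e-06 and 3.18e-05. FIT, the factor that activates IRT1 and FRO2, had 14.8, 12.9 and 15.7 CPM in roots, against 2.35, 3.98 and 2.47 CPM in leaves, and was called with and without that library (2.3 and 2.58). F6'H1, which makes the coumarins that roots secrete, rose by 2.29 ± 0.57, and by 3.25 without it. Reductases of the same family were leaf genes. FRO6, a reductase of the leaf cell surface, had 0.5, 0.585 and 0.455 CPM in roots, against 100, 102 and 64.9 CPM in leaves (-7.43 ± 0.26), and FRO7, which supplies the chloroplast, fell by 9.12 on the log2 scale (12 counts in the 3 roots together). FRO6 and FRO7 share 11.6 and 21.9% of their windows of 75 exon bases with other places in the genome.

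**Figure D4:**
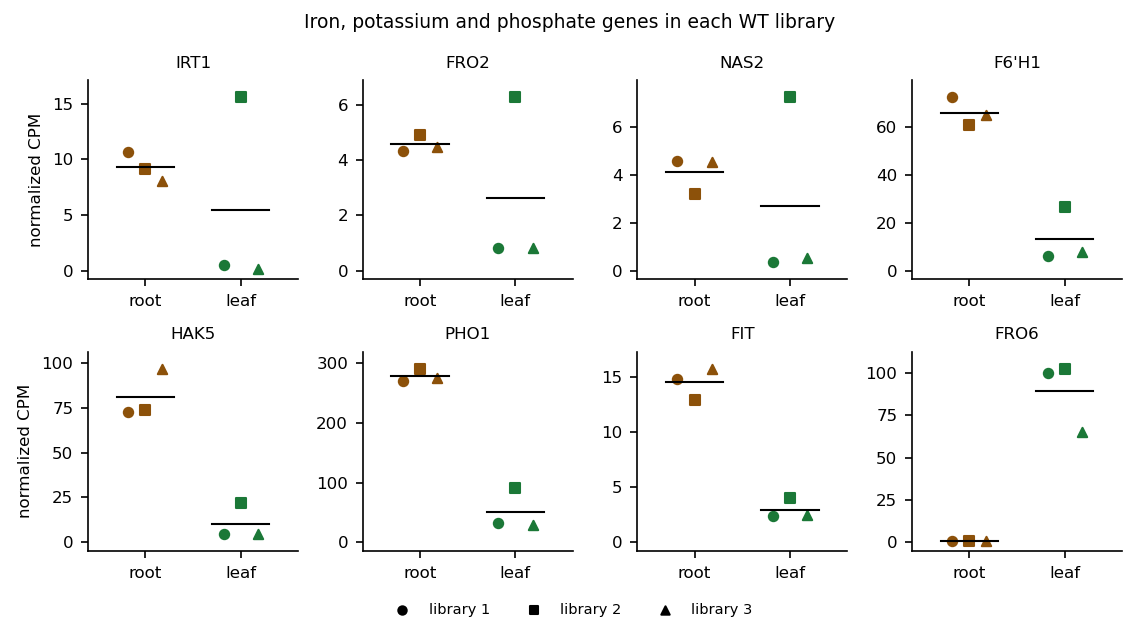
Normalized CPM (linear y axes, 1 panel per gene with its own scale) of 8 genes of iron, potassium and phosphate in the 3 WT roots, left, and the 3 WT leaf libraries, right, with 1 point per library and a bar at the mean. IRT1, FRO2 and NAS2 in the library labelled WT leaf 2 lie above all roots, at 15.6, 6.26 and 7.23 CPM, while PHO1 and HAK5 in that library lie below all roots.

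Several enzymes had an isoform that was higher in roots and another that was higher in leaves, a difference in level rather than in presence. Of 25 such genes, 12 were higher and 11 lower in roots. FD2, the leaf ferredoxin that takes electrons from photosystem I, had 40.4, 43.5 and 42.2 CPM in roots, against 1540.5, 1199.7 and 1453 CPM in leaves (-5.06 ± 0.12, adjusted p = 9.9e-07). FD3, the ferredoxin of non-green plastids, had 267, 220 and 263 CPM in roots, against 83.4, 138 and 85.6 CPM in leaves (1.29 ± 0.22, adjusted p = 0.00241). Their reductases took the same sides, with LFNR2 at -7.19 ± 0.33 and RFNR2 at 1.55 ± 0.33. The glutamate synthase GLU1, which reassimilates photorespiratory ammonium, fell by 7.16 on the log2 scale in roots, and GLU2 rose by 1.46. The chloroplast glutamine synthetase GLN2 fell by 3.86. PPC3, a PEP carboxylase of roots, had 347, 348 and 357 CPM in roots, against 63.2, 146 and 58.4 CPM in leaves (1.97 ± 0.37), while the isoform PPC2 was lower in roots (-2.04 ± 0.13). In the ferredoxin, reductase and glutamate synthase pairs the leaf isoform had the larger difference.

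Myrosinases, the enzymes that cleave glucosinolates after wounding, separated in the same manner. TGG1 had 1.28, 2.94 and 0.158 CPM in roots, against 875, 682 and 772 CPM in leaves (-9.05 ± 0.89, adjusted p = 0.000239), and TGG2 fell by 10.13 on the log2 scale in roots. Without WT root 2 they were at -10.10 and -11.26. TGG4 had 30.6, 42.7 and 41.3 CPM in roots, against 1.94, 7.34 and 3.65 CPM in leaves (3.14 ± 0.46, adjusted p = 0.00131, and 3.77 without the library labelled WT leaf 2), and TGG5 rose by 3.31 ± 0.41. Each of TGG4 and TGG5 has 11.8 and 10.7% of its windows of 75 exon bases elsewhere in the genome. The other 6 members of that list belong to ER bodies, compartments that store beta-glucosidases, and all were higher in roots. BGLU23, their main beta-glucosidase, was the most abundant root gene per kilobase of exon and had 7637, 6782 and 6625 CPM in roots, against 988, 1874 and 1270 CPM in leaves (2.35 ± 0.25, adjusted p = 0.000293). NAI2, a structural protein of these bodies, rose by 2.44 ± 0.28.

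**Figure D5:**
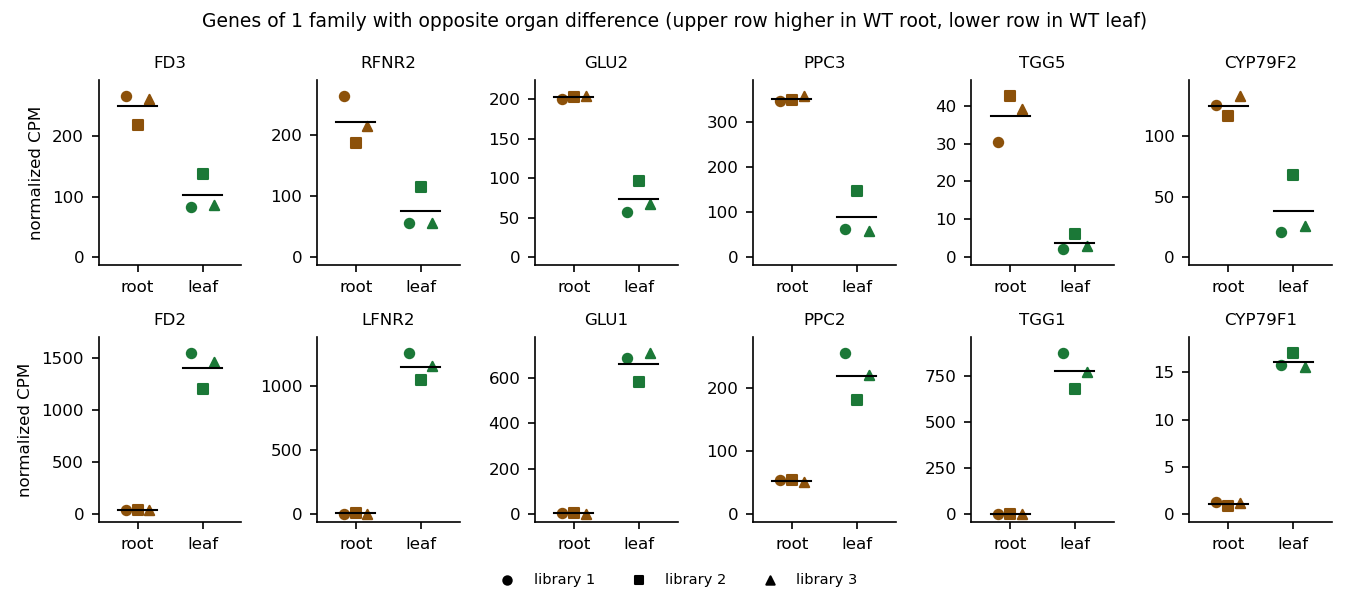
Normalized CPM (linear y axes, 1 panel per gene with its own scale) of 6 gene pairs in WT roots, left, and WT leaves, right, with 1 point per library and a bar at the mean over 3 libraries. FD2, GLU1 and TGG1 in the lower row are high in leaves and near 0 on their scale in roots, while FD3, GLU2 and TGG5 in the upper row are higher in roots and remain above 1 CPM in every leaf library.

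Genes of glucosinolate synthesis went both ways. Of 9 tested genes of aliphatic glucosinolates, 4 were higher and 3 lower in roots, shares near the 36.3 and 37.4% of all genes. CYP79F1, which starts their core synthesis from chain-elongated methionine, had 1.35, 0.858 and 1.17 CPM in roots, against 15.8, 17.0 and 15.5 CPM in leaves (-3.84 ± 0.17). Its neighbour and near copy CYP79F2 had 126, 117 and 133 CPM in roots, against 21.0, 67.6 and 25.9 CPM in leaves (1.71 ± 0.45, adjusted p = 0.0145, and 2.41 without the library labelled WT leaf 2). They share 0.832 and 1.45% of their windows of 75 exon bases with other places in the genome. MYB29, a regulator of the aliphatic branch, was lower in roots (-4.90 ± 0.18). Of 9 genes of indole glucosinolates, 7 were higher and none lower in roots, led by CYP81F4, which modifies the indole ring, with 703, 716 and 744 CPM in roots, against 65.0, 121 and 73.9 CPM in leaves (3.05 ± 0.25). CYP79B3, at the start of that branch, rose by 1.63 ± 0.13. All 8 tested genes of the triterpene clusters were higher in roots, with the highest median of the 28 lists drawn (2.92). MRN1, marneral synthase, had 89.5, 83.1 and 69.1 CPM in roots, against 0.736, 2.135 and 0.806 CPM in leaves (6.03 ± 0.39, adjusted p = 4.33e-05), and THAS1, thalianol synthase, had 238, 212 and 187 CPM in roots, against 13.5, 56.2 and 17.6 CPM in leaves (2.87 ± 0.57). Without the library labelled WT leaf 2 they were at 6.70 and 3.77. Of 7 tested flavonoid genes, 5 were higher and 1 lower in roots, and 3 were higher and 1 lower without that library. F3H, an early enzyme, had 37.7, 80.8 and 86.0 CPM in roots, against 14.1, 18.8 and 13.4 CPM in leaves (2.14 ± 0.34). Of 2 related MYB activators of flavonol synthesis, MYB12 was higher (2.02 ± 0.45, and 2.602 without it) and MYB111 lower in roots (-4.33 ± 0.41).

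Of 16 genes of light perception and signalling, 12 were lower and 3 higher in roots (median -1.24). PIF4, a factor that phytochromes restrain, had 0.827, 1.03 and 0.653 CPM in roots, against 94.9, 78.7 and 72.3 CPM in leaves (-6.61 ± 0.20, adjusted p = 1.63e-06), and the blue light receptor PHOT2 fell by 3.86 on the log2 scale. ELIP1, which protects chloroplasts in strong light, was higher in roots, with 12.1, 24.6 and 29.9 CPM in roots, against 5.53, 5.47 and 6.99 CPM in leaves (1.89 ± 0.35, adjusted p = 0.00332). Of 14 clock genes, 8 were lower and 1 higher in roots, and 5 were lower and 3 higher with library size alone. CCA1, a morning factor, had 3.96, 3.68 and 3.09 CPM in roots, against 19.5, 19.8 and 20.5 CPM in leaves (-2.48 ± 0.11). GI, an evening gene, had 88.3, 111 and 110 CPM in roots, against 107, 111 and 110 CPM in leaves (adjusted p = 0.479), and with library size alone it was higher in roots (0.40, adjusted p = 0.0113).

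Of 17 tested auxin genes, 10 were higher and 6 lower in roots, against 36.3 and 37.4% of all genes, so the share lower was near the background. Among the YUCCA enzymes that complete auxin synthesis, YUC3 had 12.4, 12.8 and 13.1 CPM in roots, against 2.18, 2.22 and 2.16 CPM in leaves (2.55 ± 0.09, adjusted p = 2.31e-06). YUC2 had 0.74, 0.819 and 0.812 CPM in roots, against 9.65, 4.70 and 9.67 CPM in leaves (-3.33 ± 0.33). Among the PIN efflux carriers, PIN2, the carrier of the root epidermis, had 103, 104 and 105 CPM in roots, against 10.12, 32.3 and 14.2 CPM in leaves (2.46 ± 0.43, and 3.09 without the library labelled WT leaf 2). PIN7 had 86.0, 78.6 and 78.1 CPM in roots, against 260, 162 and 222 CPM in leaves (-1.41 ± 0.17). Of 11 genes of vascular tissue, 9 were higher and none lower in roots (median 1.79), among them LAC17, a laccase of lignin, at 3.00 ± 0.16, and XCP1, a protease of dying xylem cells, at 2.68 ± 0.24. VND6, a master factor of xylem vessels, had 1.78, 1.81 and 1.68 CPM in roots, against 2.18, 1.76 and 1.5 CPM in leaves (adjusted p = 0.852). Of 16 genes of cell division, 11 were higher and 2 lower in roots, with small differences (median 0.57). CDKB1;1, a mitotic kinase, rose by 1.07 ± 0.11, and the inhibitors KRP1 and SMR1 were lower in roots (-2.35 ± 0.15 and -0.86 ± 0.08).

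Largest differences were ranked among called genes whose organs did not overlap and whose higher mean was at least 10 CPM, 10 each way. On the root side MRN1 was followed by LAC2, a laccase, with 10.8, 9.47 and 10.02 CPM in roots, against 0.206, 0.541 and 0.345 CPM in leaves (4.78 ± 0.28). The neighbouring O-methyltransferase genes AT1G77520 and AT1G77530 came next, at 4.67 ± 0.18 and 4.63 ± 0.38, with 0.23 and 0.219% of their windows of 75 exon bases elsewhere in the genome. AT2G38390, a class III peroxidase, had 294, 255 and 295 CPM in roots, against 9.21, 18.0 and 8.95 CPM in leaves (4.54 ± 0.32). The others were the MADS factors AGL42 (4.32) and AGL21 (4.07), the peptide gene CLE5 (4.09), the lipid recognition gene AT5G23840 (4.29) and the glyoxal oxidase gene AT1G19900 (4.28). Without the library labelled WT leaf 2, AGL42 was at 5.16, AGL21 at 5.12 and CLE5 at 5.31. On the leaf side CYP71A22, a cytochrome P450, had 0 counts in roots and 17.6, 22.1 and 22.4 CPM in leaves, at least 1021-fold lower in roots, a bound that does not rank it against the other 9. Besides 4 genes of the stretch on chromosome 4, the leaf side held AT3G16670, annotated as a pollen Ole e allergen and extensin family gene, COR15B, a cold-regulated chloroplast protein, AT3G05727, PRB1, a basic pathogenesis-related protein, and AT5G38930, a germin-like cupin. PRB1 had 1 count in the roots together and was 3301-fold lower by pooled level (95% counting interval 592 to 130440), and AT3G16670 had 3 counts and was 3916-fold lower (1339 to 18991). COR15B differed most within leaves, with 0, 0.0585 and 0.0198 CPM in roots, against 73.8, 154 and 26.8 CPM in leaves. Most of the few root counts on this side came from WT root 2.

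Per kilobase of exon, the most abundant transcripts of roots were those of BGLU23 (mean 3884 CPM per kb), the wall protein extensin EXT3 (2228), the glycine-rich protein GRP9 (1864), the protease inhibitor DR4 (1720) and the RNA-binding protein GRP7 (1401). Those of leaves were LHCB1.3 (15283 CPM per kb), RBCS1A (13068), LHCB1.5 (11542), PSBR (6875) and RBCS3B (5300). The top of the leaf list was thus made of antenna, Rubisco and photosystem II genes. GRP7, although among the 5 most abundant root genes, was lower in roots, with 1389, 1655 and 1851 CPM in roots, against 4010.0, 2834 and 3699 CPM in leaves (-1.11 ± 0.17, adjusted p = 0.00127).

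Gene families were described by their annotation. Class III peroxidases, which crosslink cell walls, had 36 of 53 tested members higher and 8 lower in roots (median 1.79). Dirigent proteins, which steer lignan and lignin coupling, had 15 of 18 higher and 3 lower (median 2.49), with AT4G11210 at 66.8, 72.2 and 78.1 CPM in roots, against 4.92, 8.06 and 7.16 CPM in leaves (3.43 ± 0.19). Glutathione transferases had 22 of 38 higher and 8 lower, and MYB factors 47 of 85 higher and 21 lower in roots. Among the families with more members lower than higher in roots were SAUR genes, early auxin responders, with 18 of 60 higher and 38 lower (median -3.72), B-box and CONSTANS-like factors, with 5 of 39 higher and 25 lower (median -1.41), and cysteine-rich receptor-like kinases, with 4 of 24 higher and 16 lower (median -3.38). Members such as SAUR28 and CRK21, below, passed the filter through leaves alone. Summed over all members, SAUR genes had 330, 333 and 378 CPM in roots, against 600, 480 and 645 CPM in leaves. The cysteine-rich receptor-like kinases summed to 247, 244 and 225 CPM in roots, against 478, 584 and 493 CPM in leaves. Aquaporins had 11 of 21 higher and 8 lower in roots, against 36.3 and 37.4% of all genes, so the share lower was near the background. With library size alone 12 were higher and 4 lower. TIP2;3, an aquaporin of the vacuole membrane, had 43.6, 40.1 and 45.6 CPM in roots, against 3.50, 4.13 and 3.48 CPM in leaves (3.54 ± 0.10), and the plasma membrane aquaporin PIP2E had 20.5, 18.3 and 19.0 CPM in roots, against 396, 365 and 434 CPM in leaves (-4.37 ± 0.10). Within families members went both ways. The peroxidase AT5G58390 fell by 8.11 on the log2 scale in roots (10 counts in the 3 roots together), the receptor kinase CRK25 rose by 2.18 (2.82 without the library labelled WT leaf 2) while CRK21 fell by 9.69 (5 counts in the 3 roots together), and the SAUR gene AT4G31320 rose by 2.74 while SAUR28 had 0 counts in roots and 210 in leaves (at least 99.6-fold lower in roots). Pentatricopeptide repeat genes, which process organelle RNA, had 36 of 246 higher and 84 lower in roots, but 122 higher and 51 lower with library size alone, so that this family has no direction that holds under both scalings.

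The organ difference of WT was set against that of the pi4kβ1β2 double mutant in 1 fit over all 12 libraries. The interaction of genotype and organ passed the test in 4642 of 20765 genes (22.4%), and in 6650 genes when the libraries labelled WT leaf 2 and pi4kβ1β2 leaf 1 were left out. In the mutant's own 6 libraries 78.6% of the genes tested differed between organs. Of the 29 lists, the clock list had the most called members relative to its size, 11 of 14, and it had 5 members higher and 5 lower in mutant roots, against 1 higher and 8 lower in WT roots. FKF1, a light sensor of the flowering pathway, was lower in WT roots (-1.86, with 5.22, 10.8 and 9.60 CPM in WT roots, against 33.6, 26.9 and 33.0 CPM in WT leaves) and higher in mutant roots relative to mutant leaves (1.94). CYP79B3 differed between organs in WT and not in the mutant by the same threshold (1.63, adjusted p = 8.75e-05, against -0.05, adjusted p = 0.829), with an interaction of 1.68 (adjusted p = 0.00186).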

How the data were processed

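The authors trimmed the reads, removed ribosomal sequences, aligned them to TAIR10 with STAR (also named in the submitters' processing notes) and deposited 1 file a library of raw read counts by gene, in which multi-mapping reads were not counted. The sense-strand column was used, unnormalized as deposited. All genes that reached 1 CPM in 3 or more of the WT libraries (39313257 to 43069306 counts each) were fitted with edgeR 4.0.16 (TMM, glmQLFit with robust estimation, glmQLFTest) in R 4.3.3, with Benjamini-Hochberg adjustment at 0.05. Named levels are CPM scaled by the TMM-normalized library size. A value after ± is an approximate standard error, the absolute log2 fold change divided by the square root of the F statistic of the test. Pooled folds carry exact (Clopper-Pearson) 95% intervals, which cover counting error only, and the floor was 3 counts over an organ.

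Named were the 10 genes with the largest difference each way among called genes whose organs do not overlap and whose higher mean is at least 10 CPM, the 5 most abundant per kilobase in each organ, members of 29 fixed lists (largest, smallest, most abundant or opposite), family members with the largest differences, and the 3 genes that check the labels. Members and lists were chosen with earlier results of these data known. Names, products, lengths and sequences are from RefSeq TAIR10.1.

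The alternatives were the likelihood ratio test, DESeq2 1.42.0, RLE factors, library size alone, no filter, 1 CPM in 4 of 6 libraries, counts without strand, all 12 libraries, the replicate block, a test against 2-fold, and each library left out in turn. Leaving out the libraries labelled WT leaf 2 and pi4kβ1β2 leaf 1 together was chosen after seeing the data.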

Additional observations from a re-analysis of the deposited data

Results flagged for a closer look

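The organ difference of WT was not the same as that of the pi4kβ1β2 double mutant in 42 of the 155 named genes tested, by the interaction of genotype and organ in edgeR's quasi-likelihood test over all 12 libraries with Benjamini-Hochberg adjustment. The background of this test is 22.4% of 20765 genes. The values below are log2 of root over leaf in WT minus the same in the mutant, 29 above 0 and 13 below 0. Of the 42 calls, 39 were kept without the library labelled WT leaf 2 and 37 without both libraries whose MRD1 level went against their labels, and all 42 kept their sign in the fit without both libraries.

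Leaf genes of photosynthesis that passed the interaction test had values above 0, which for these genes means a smaller difference in WT. They were 1.47 for LHCB3, 1.6 for RBCS1A, 1.07 for PSBR, 1.85 for CHLH, 2.43 for PORC, 1.06 for TPT and 0.86 for FD2. RBCS1A missed the threshold without the library labelled WT leaf 2 (adjusted p = 0.0727). Other named photosynthesis genes were not called, with values on both sides of 0, such as -1.20 for LHCB1.4, -0.20 for GOX1 and 1.09 for RBCS3B.

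Genes higher in WT roots that passed the interaction test also had values above 0, which for these genes means a larger difference in WT. They were 1.67 for CER4, 1.13 for CYP86A1, 1.29 for BGLU23, 2.17 for MRN1, 0.97 for CYP81F4, 1.68 for CYP79B3, 1.22 for LAC17, 2.4 for LAC2, 3.83 for AT1G77520, 2.38 for AT1G77530 and 2.16 for AT2G38390. The values were 0.82 for GRP9, 1.78 for DR4, 1.62 for TIP2;3, 0.93 for AT4G11210, 0.76 for GORK, 0.72 for LACS2 and 0.41 for SCN1. Many of these genes were named for a large difference in WT, and that choice favours a larger difference in WT than in the mutant.

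Transporter and regulator genes with other organ patterns also passed the test. The values were 1.82 for SUC2, 1.36 for AKT2, 0.88 for KNAT1 and -0.71 for SCR. SUC2 fell by 2.00 on the log2 scale in mutant roots relative to mutant leaves, and SCR rose by 0.72 there.

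Clock-related genes included both signs. CCA1 had 1.09, FKF1 -3.80 and GI -1.09, and GRP7, which the clock controls, had -2.41. GRP7 was lower in WT roots (-1.11) and higher in mutant roots (1.31) than in the leaves of the same genotype. The cell cycle inhibitor SMR1 had -1.19. CCA1 missed the threshold without the library labelled WT leaf 2 (adjusted p = 0.0653) and passed it without both libraries (adjusted p = 0.0307).

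The genes with the largest leaf levels relative to roots in WT had values below 0, which for these genes means a larger difference in WT. They were chosen as the extremes of WT, with 0 to few counts in roots, so this sign follows in part from the choice and is given as a description. The values were -4.87 for CYP71A22, -5.68 for AT4G22513, -5.68 for AT4G22517, -5.38 for AT4G22520, -5.24 for AT4G22505, -5.53 for AT4G22485, -4.47 for AT3G05727 and -2.77 for the peroxidase gene AT5G58390. Without both libraries AT4G22517, AT4G22505, AT3G05727 and AT4G22485 missed the threshold, with adjusted p of 0.0533, 0.068, 0.0875 and 0.0573, and AT4G22513 passed it at 0.0454. CYP71A22 missed it without the library labelled WT leaf 2 alone (adjusted p = 0.0602).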

How the results depend on the processing

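Scaling moved the counts most. With library size alone 12116 genes were higher and 4598 lower in roots, and 5247 were at least 2-fold higher. A test against 2-fold itself left 2175 genes at least 2-fold higher in roots. In the other alternatives the 4 counts stayed within 1.5 times of those reported. Leaving out each library in turn gave 6519 to 7779 genes higher and 6903 to 7815 lower in roots, 2978 to 3679 at least 2-fold higher and 3870 to 4026 at least 2-fold lower, with the highest count of genes in roots without the library labelled WT leaf 2. The interaction gave 4537 genes with RLE factors, 5570 without the library labelled WT leaf 2 and 6650 without both doubted libraries.

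Of 155 named genes tested, 140 kept their call and direction in each of the 15 alternatives that could test them. The sign reversed with library size alone in 3 genes, KCS20 (0.17), TPST (0.45) and GI (0.40). The remaining 12 changed their side of the threshold in at least 1 alternative, WOX5 in 9 and SCN1 in 7 of them. IRT1, FRO2, NAS2, SUC2, PI4KB1 and PI4KB2 were called without the library labelled WT leaf 2 and not with it. Genes below 1 CPM in the libraries of 1 organ drop out where 4 of 6 libraries must reach it, and 119 of the 155 could then be tested.

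The deviations of same-numbered root and leaf libraries correlated at -0.0236, -0.00556 and 0.336, against -0.378 to 0.268 for libraries of unlike number. With 3 libraries per organ these values cannot decide whether the replicate numbers pair the libraries. The fit with the replicate block gave 6983 genes higher and 7226 lower in roots, 3345 and 3999 of them at least 2-fold, and 4509 interactions. Among named genes it lost the calls of WOX5 and SCN1.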
